A study of Mus musculus with 21 samples.

Results

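Interferon-stimulated genes are the genes that cells switch on when they sense interferon, and 39 of them were followed here across 21 bead arrays of mouse tumors and muscle. They were chosen by the measured differences between groups, because some of them lay on opposite sides of normal muscle in 2 tumor models. They were kept where a probe had a detection p under 0.01 on at least 3 of the 21 arrays. That left 32 genes, out of 11034 genes measured in all. The genes left out were Ifit1, Ifih1, Mx1, Oas1a, Oas3 and Xaf1, whose probes were detected on 0 arrays, and Ifi44, which has no probe named for it. Just inside the threshold lay Isg20, detected on 7 arrays, Parp9 on 10 and Ddx58 on 13. Because the choice used the group differences, those differences are given for the 32 genes as a description, with no test.

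All mice carried 1 allele of SmoM2, an activated form of Smoothened that turns on Hedgehog signalling, on a mixed C57Bl/6 and 129X1/SvJ background. The 15 aP2-Cre tumors had the genotype aP2-Cre/+;SmoM2/+. Cre was driven in them by the promoter of aP2, a fatty acid carrier of fat cells, also named Fabp4, that macrophages and endothelial cells make as well. The 3 Myogenin-Cre tumors had the genotype Myogenin-Cre/+;SmoM2/+, with Cre driven by the promoter of a transcription factor of differentiating muscle. The series describes both models as embryonal rhabdomyosarcoma, a tumor with features of immature skeletal muscle. The control was 3 samples of sternocleidomastoid, a neck muscle, with the genotype SmoM2/+ and no Cre named. Ages are not given, each tumor is labelled with a mouse number, and the labels do not say whether the muscle samples came from separate animals. P-values involving muscle therefore measure a spread that may be partly technical.

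Arrays fall into 5 sets, inferred from maxima shared in the authors' normalized values. The sets are taken here as normalized separately, which the labels do not state. The muscle arrays share a set with aP2-Cre tumors 128, 135 and 140, and the Myogenin-Cre tumors 41, 42 and 43 share another with aP2-Cre tumors 89, 90 and 95. No set holds both Myogenin-Cre tumors and muscle. The deposited intensities without normalization were therefore normalized together here, and levels below are normalized log2 intensities, in which a difference of 1 is a doubling. The share of probes detected on an array ran from 32% to 39.8%. Of 12 mature muscle markers, all were measured, and their summed level was 18.01 to 18.08 in muscle, 16.95 to 17.60 in aP2-Cre tumors and 17.43 to 17.55 in Myogenin-Cre tumors.

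Type I interferons bind a receptor whose kinases activate transcription factors of the STAT family. STAT2 and IRF9 act in the complex ISGF3, which binds a DNA element called the interferon-stimulated response element (ISRE). Interferon gamma acts mainly on a second element, the gamma-activated site (GAS), and induces IRF1, which itself binds ISRE-like elements. The products include antiviral enzymes, RNA sensors, guanylate-binding proteins and the ubiquitin-like protein ISG15.

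Promoter sequences are shown for 5 genes on which the results turn: Isg15 and Oas1g, which lay on opposite sides of muscle in the models, Gbp2 and Gbp3, which were low in Myogenin-Cre tumors, and Irf1, whose level varied among aP2-Cre tumors. Each is the 150 bases before the gene's start in RefSeq, build GRCm38.p6, read along the gene's strand. Capitals mark matches to the ISRE core, 2 copies of GAAA parted by 2 bases of any kind, on either strand, and in Irf1 the match to the GAS element TTCNNNGAA. For Gbp3 and Irf1, which have several starts in the table, the first by position is shown.
Isg15 (chr4:156200819-156200968, minus strand): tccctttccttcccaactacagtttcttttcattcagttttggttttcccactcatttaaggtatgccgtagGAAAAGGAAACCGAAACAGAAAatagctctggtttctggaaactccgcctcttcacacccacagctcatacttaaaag
Oas1g (chr5:120887614-120887763, minus strand): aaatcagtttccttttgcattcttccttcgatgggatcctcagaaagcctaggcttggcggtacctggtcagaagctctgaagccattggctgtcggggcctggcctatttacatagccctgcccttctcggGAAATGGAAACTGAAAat
Gbp2 (chr3:142620513-142620662, plus strand): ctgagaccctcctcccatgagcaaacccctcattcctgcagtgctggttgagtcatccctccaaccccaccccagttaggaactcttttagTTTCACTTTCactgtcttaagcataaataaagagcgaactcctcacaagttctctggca
Gbp3 (chr3:142559894-142560043, plus strand): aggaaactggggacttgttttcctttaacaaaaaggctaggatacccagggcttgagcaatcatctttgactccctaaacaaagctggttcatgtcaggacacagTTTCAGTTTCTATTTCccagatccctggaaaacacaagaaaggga
Irf1 (chr11:53769864-53770013, plus strand): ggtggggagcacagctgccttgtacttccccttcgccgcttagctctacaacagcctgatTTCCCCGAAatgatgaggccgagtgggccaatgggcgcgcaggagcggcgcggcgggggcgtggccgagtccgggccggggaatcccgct
In Isg15 the run of capitals is made of overlapping matches, and the match nearest to the start begins 66 bases before it. In Oas1g the nearest match begins 12 bases before the start, in Gbp2 59 and in Gbp3 39. Of the 32 measured genes, 25 have a promoter in the RefSeq table, taken from 250 bases before to 50 after the start. The ISRE core was found in 13 of those 25 (52.0%), and in 330 of 8883 measured genes with a promoter (3.71%). The GAS element was found in 9 of 25 (36.0%), and in 739 of 8883 (8.32%). The 2 motifs overlap each other in Bst2 and Ifitm3. A match is a string of letters in this window, and no binding was measured. Among genes with every aP2-Cre array above every Myogenin-Cre array 8 of 15 held the ISRE core, and among those whose arrays overlapped 5 of 10 did. The GAS element was found in 3 of the 15 (20.0%) and 6 of the 10 (60.0%), a description of few genes.

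Interferon-stimulated genes were mostly higher in aP2-Cre tumors than in muscle, and mostly lower in Myogenin-Cre tumors. In aP2-Cre tumors 31 of the 32 means lay above muscle, with a median log2 difference of 0.71 against 0.09 over all genes. For 15 of them every tumor array lay above every muscle array, which was so for 25.1% of all genes, and for 0 of them every array lay below (22.9% of all genes). In Myogenin-Cre tumors 23 of 32 means lay below the same muscle arrays, with a median log2 difference of -0.50 against 0.06 over all genes. Every Myogenin-Cre array was below every muscle array for 13 genes (30.4% of all genes) and above for 1, Trim25 (32.1% of all genes). Under median centering of the arrays in place of quantile normalization these counts were 6 and 5. For 3 of the 32 genes, Irf7, Ddx58 and Oasl1, no probe was detected on any muscle or Myogenin-Cre array, so that these groups have no order. These genes passed the filter through aP2-Cre arrays alone. The probes used for Dhx58, Rtp4, Parp9 and Isg20 were detected on fewer than 3 other arrays, so they also needed aP2-Cre arrays to pass. In the aP2-Cre counts the filter thus partly set the place of all these genes relative to the other groups. Without Irf7, Ddx58 and Oasl1, 20 of 29 means lay below muscle, 12 genes were lower without overlap and 1 higher. The 29 still hold Dhx58, Rtp4, Parp9 and Isg20. Set against each other, the aP2-Cre mean was above the Myogenin-Cre mean for 31 of 32 genes, with a median log2 difference of 1.03 against 0.01. Every aP2-Cre array lay above every Myogenin-Cre array for 20 of 32 genes (3.23% of all genes), and for 0 of them below (2.40% of all genes). These shares stand beside counts that the choice of genes helped to set. The first and second comparisons share their muscle arrays. In bulk RNA, fewer cells of a type and less RNA per cell cannot be told apart.

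**Figure D1:**
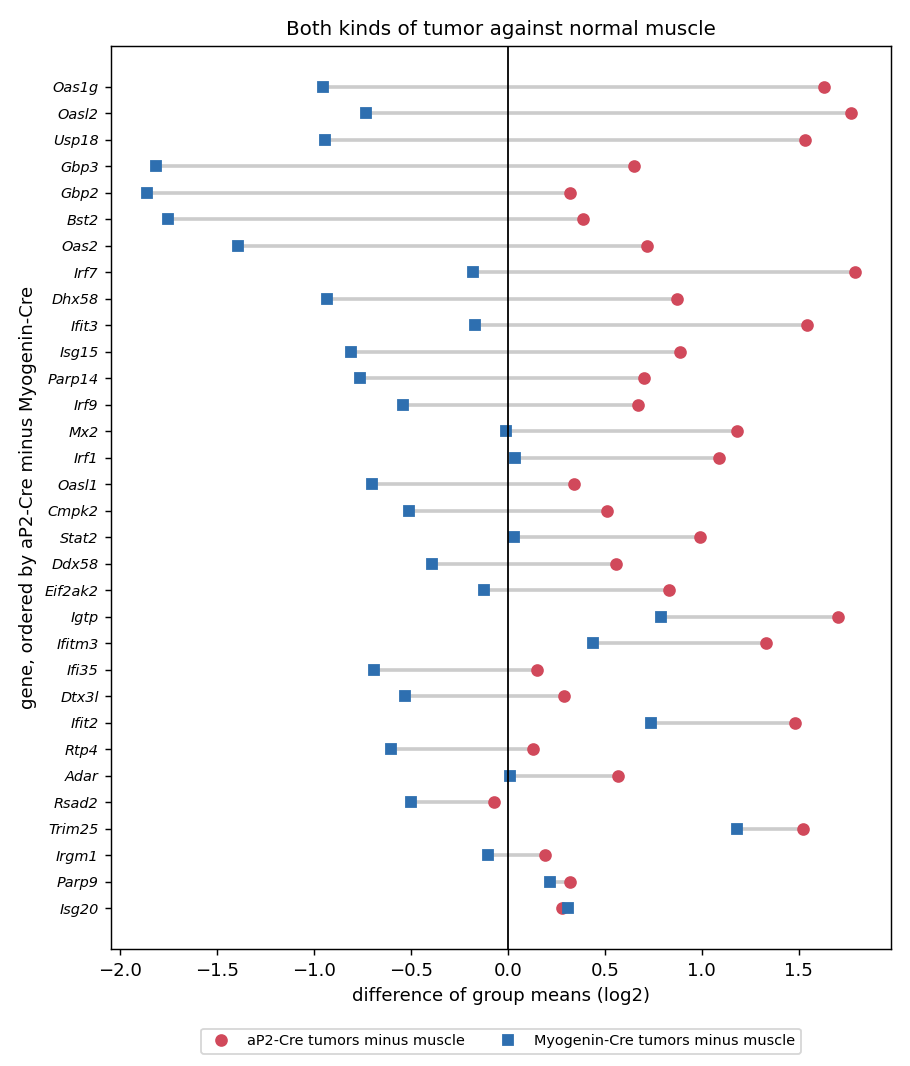
Difference of each tumor group's mean from the muscle mean (log2) for the 32 genes, ordered by the difference between the tumor groups, with aP2-Cre tumors as circles (n = 15) and Myogenin-Cre tumors as squares (n = 3). For 22 genes the circle lies to the right of 0 and the square to the left, among them Irf7, Ddx58 and Oasl1, undetected in muscle and Myogenin-Cre tumors, whose squares show no order; Rsad2 is the single gene with both to the left.

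Opposite signs were found for 19 of the 29 genes detected in muscle or Myogenin-Cre tumors. The aP2-Cre mean was above and the Myogenin-Cre mean below muscle, as for 782 of all 11034 genes (7.09%). For 9 genes both means were above muscle, for Rsad2 both were below, and for 0 genes the order was reversed. For 5 of the genes with opposite signs no array overlapped in either comparison, as for 11 of all 11034 genes (0.0997%). They were Isg15, Oas1g, Dhx58, Irf9 and Parp14. The choice of genes helped to set these counts. For Dhx58, whose probe needed aP2-Cre arrays to pass, the filter did so too. Under median centering 17 of the 29 had opposite signs, in the authors' normalized values 18, and with the set of arrays as a covariate 14. Those 5 genes kept opposite signs in each of these. The 5 belong to different functional groups, which are described in turn.

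**Figure D2:**
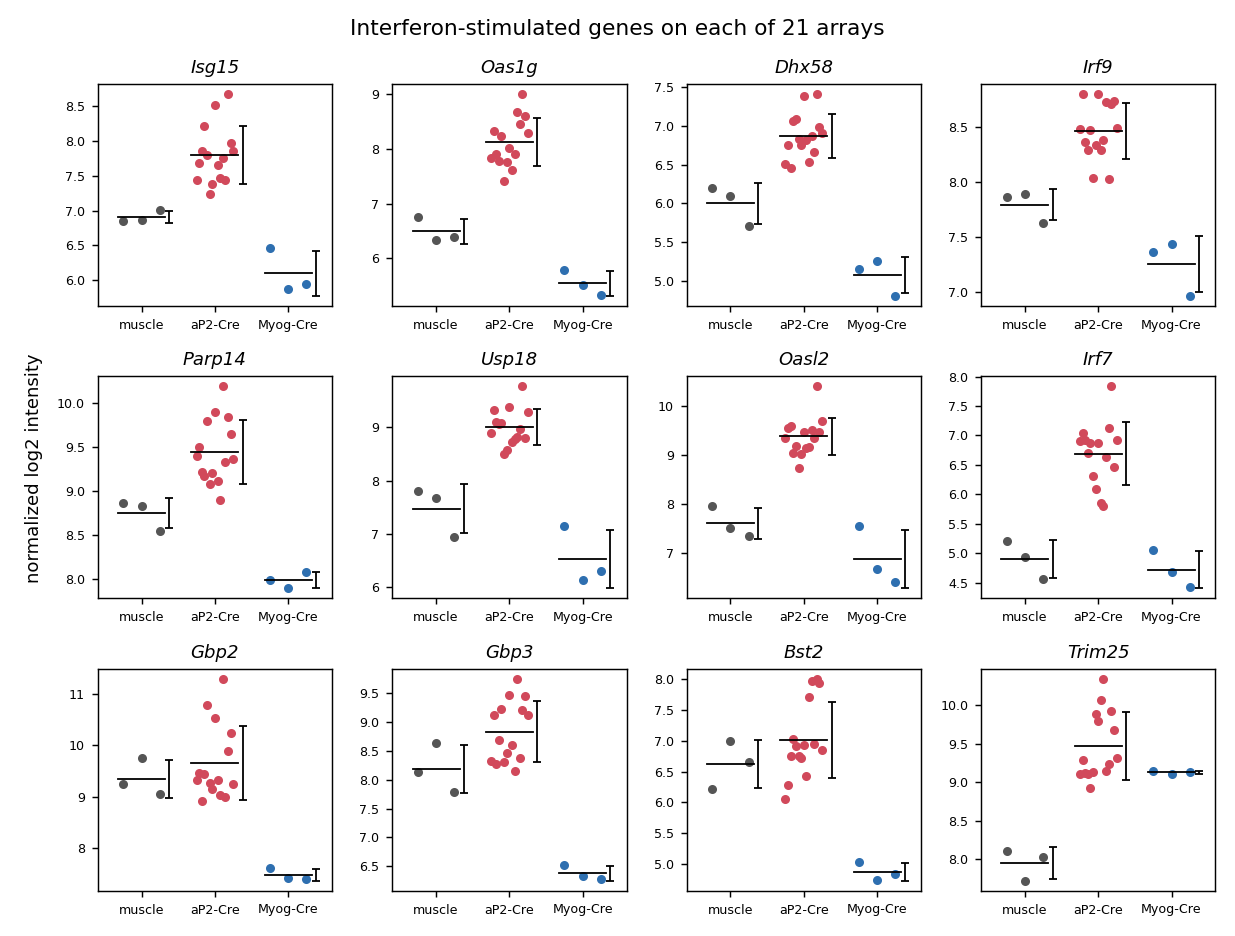
Normalized log2 intensity of 12 genes on each of the 21 arrays, in muscle (n = 3), aP2-Cre tumors (n = 15) and Myogenin-Cre tumors (Myog-Cre, n = 3), with the group mean as a horizontal line and the SD as a bar beside it; each panel has its own vertical axis, which does not start at 0. In the first 5 panels the groups do not overlap, with aP2-Cre tumors highest and Myogenin-Cre tumors lowest, whereas in Trim25 both tumor groups lie above muscle.

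Irf9 is the DNA-binding part of ISGF3. Its levels were 7.86, 7.88 and 7.63 in muscle (mean 7.79 ± 0.14 SD, n = 3). In aP2-Cre tumors they ran from 8.02 through a median of 8.47 to 8.80 (8.46 ± 0.25 SD, n = 15), and in Myogenin-Cre tumors they were 7.36, 7.43 and 6.96 (7.25 ± 0.25 SD, n = 3). The 3 groups did not overlap, and the differences from muscle were 0.67 and -0.54. Stat2, its partner, followed another pattern. It was 6.31, 6.27 and 5.98 in muscle and 6.19, 6.37 and 6.08 in Myogenin-Cre tumors, so that these groups overlapped, with 6.82 to 7.63 (median 7.22) in aP2-Cre tumors. Every aP2-Cre array therefore lay above both other groups.

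Irf1, an activator induced by interferon gamma, resembled Stat2 in this respect. It was 9.93, 9.84 and 9.56 in muscle and 9.83, 9.94 and 9.70 in Myogenin-Cre tumors, which overlapped. In aP2-Cre tumors it ran from 10.30 (median 10.70) to 12.13 in tumor 115, all above the other groups. Irf7 is an amplifier of interferon production that is itself interferon-induced. It was detected on 15 of 15 aP2-Cre arrays, at 5.80 to 7.83 (median 6.87), and on 0 arrays of muscle or Myogenin-Cre tumors. Its aP2-Cre mean was at least 2.03-fold above muscle and at least 2.46-fold above Myogenin-Cre tumors, and since it was undetected in the latter groups they have no order. Such bounds set the brighter group's mean against the lowest detected signal of each dim array, or the gene's own value where higher. All 4 transcription factors thus had every aP2-Cre array above every muscle and every Myogenin-Cre array. Irf7 passed the filter through aP2-Cre arrays alone, which partly set its place there. Irf9 alone also had every Myogenin-Cre array below muscle.

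Isg15 encodes a ubiquitin-like protein that is attached to other proteins. Its levels were 6.85, 6.87 and 7.01 in muscle (6.91 ± 0.09 SD, n = 3) and 6.47, 5.88 and 5.95 in Myogenin-Cre tumors (6.10 ± 0.32 SD, n = 3). In aP2-Cre tumors they ran from 7.24 through a median of 7.76 to 8.68 (7.80 ± 0.41 SD, n = 15), so the groups did not overlap. The differences from muscle were 0.89 and -0.81. Usp18, which removes ISG15 and damps signalling from the type I receptor, was 7.80, 7.68 and 6.95 in muscle and 7.16, 6.13 and 6.31 in Myogenin-Cre tumors. These groups overlapped through muscle sample 3 and tumor 41, and all 15 aP2-Cre tumors were higher, at 8.51 to 9.77 (median 8.98). Trim25, a ubiquitin and ISG15 ligase, was above muscle in both models. It was 8.10, 7.72 and 8.03 in muscle, 9.14, 9.11 and 9.14 in Myogenin-Cre tumors and 8.93 to 10.35 (median 9.29) in aP2-Cre tumors, with no tumor array overlapping muscle. Its Myogenin-Cre difference from muscle, 1.18, was 0.43 with the set of arrays as a covariate.

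The OAS genes encode enzymes that sense double-stranded RNA and activate RNase L, and the related OASL proteins. Oas1g was 6.75, 6.33 and 6.39 in muscle (6.49 ± 0.23 SD, n = 3). In aP2-Cre tumors it ran from 7.41 through a median of 8.01 to 9.0 (8.12 ± 0.44 SD, n = 15), and in Myogenin-Cre tumors it was 5.78, 5.52 and 5.33 (5.54 ± 0.23 SD, n = 3), with detection on 2 of 3 arrays. The differences from muscle were 1.63 and -0.95, with no overlap. On another Oas1g probe they were 1.13 and -0.40. Mouse Oas1 genes are close relatives, and whether the probe also reads other Oas1 transcripts was not tested. Oasl2 was 7.97, 7.52 and 7.36 in muscle, 7.56, 6.67 and 6.42 in Myogenin-Cre tumors and 8.73 to 10.40 (median 9.35) in aP2-Cre tumors. Tumor 41 lay among the muscle arrays, and the aP2-Cre tumors lay above all of them. Oas2 was 7.35, 6.85 and 6.99 in muscle and 6.28, 5.58 and 5.16 in Myogenin-Cre tumors, which were all lower. Its aP2-Cre levels, 6.70 to 8.94 (median 7.70), overlapped muscle. Oasl1 was undetected in muscle and in Myogenin-Cre tumors, so their order is not given, and its aP2-Cre mean was at least 1.09-fold above muscle and 1.32-fold above Myogenin-Cre tumors.

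Dhx58 encodes LGP2, a regulator of the RNA sensors RIG-I and MDA5. It was 6.20, 6.10 and 5.71 in muscle (6.0 ± 0.26 SD, n = 3), detected on 2 of 3 arrays. It ran from 6.46 through a median of 6.83 to 7.42 in aP2-Cre tumors (6.87 ± 0.29 SD, n = 15), and was 5.16, 5.26 and 4.81 in Myogenin-Cre tumors (5.07 ± 0.24 SD, n = 3). The groups did not overlap, but in Myogenin-Cre tumors the probe used was detected on 0 arrays and any Dhx58 probe on 1, so the size of that difference is uncertain. The probe used passed the filter only with aP2-Cre arrays, which partly set the gene's place above the other groups. On other Dhx58 probes the Myogenin-Cre difference from muscle was -0.43 and -0.07, against -0.93 on the probe used. Ddx58, which encodes RIG-I, was undetected in muscle and Myogenin-Cre tumors, and its aP2-Cre mean was at least 1.27-fold above the latter. Eif2ak2, the kinase PKR that halts translation on sensing double-stranded RNA, was 8.71 to 9.78 (median 9.09) in aP2-Cre tumors, above all other arrays. It was 8.48, 8.14 and 8.34 in muscle and 8.27, 8.38 and 7.95 in Myogenin-Cre tumors, which overlapped. Adar, an RNA-editing enzyme, had overlapping arrays in the 3 comparisons, with means of 7.25 in aP2-Cre tumors, 6.69 in Myogenin-Cre tumors and 6.68 in muscle.

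Parp14 encodes an ADP-ribosyltransferase. It was 8.87, 8.83 and 8.55 in muscle (8.75 ± 0.17 SD, n = 3). It ran from 8.90 through a median of 9.37 to 10.19 in aP2-Cre tumors (9.45 ± 0.36 SD, n = 15), and was 7.99, 7.89 and 8.08 in Myogenin-Cre tumors (7.99 ± 0.09 SD, n = 3). The gap between the lowest aP2-Cre tumor and the highest muscle array was small, and the Myogenin-Cre arrays lay lower. The Myogenin-Cre difference from muscle was -0.76 on this probe but -0.11 on another Parp14 probe. Dtx3l, a ubiquitin ligase that pairs with PARP9, was also lower on every Myogenin-Cre array, at 8.14, 7.91 and 8.03, than in muscle, at 8.74, 8.60 and 8.34. Its probes disagreed on the sign of the aP2-Cre differences. Parp9 was detected on 9 of 15 aP2-Cre, 1 of 3 Myogenin-Cre and 0 of 3 muscle arrays, too few to order the groups.

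Among the IFIT and IFITM genes, which encode proteins that bind viral RNA or block viral entry, no member had Myogenin-Cre arrays fully below aP2-Cre arrays. Ifitm3, a membrane protein gene, was 11.80, 11.87 and 11.39 in muscle, 12.38, 12.24 and 11.77 in Myogenin-Cre tumors and 12.36 to 13.22 (median 13.06) in aP2-Cre tumors. The 3 groups thus stepped upward from muscle, with tumor 43 inside the muscle range and tumor 41 just above aP2-Cre tumor 104. Ifit2 was 6.81, 6.87 and 5.80 in muscle, 6.75, 7.44 and 7.53 in Myogenin-Cre tumors and 7.48 to 8.49 (median 7.97) in aP2-Cre tumors, which all lay above muscle. Ifit3 spread most, from 5.11 in aP2-Cre tumor 104 through a median of 9.87 to 10.59. It was detected on 14 of 15 aP2-Cre arrays, so the low end of this range, and overlap that rests on it, is uncertain. It was 8.94, 7.70 and 7.45 in muscle and 8.02, 7.93 and 7.63 in Myogenin-Cre tumors, and every pair of groups overlapped. Ifi35, an interferon-induced leucine zipper protein, was lower on every Myogenin-Cre array, at 6.63, 6.35 and 6.27, than in muscle, at 7.36, 7.05 and 6.90.

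The guanylate-binding proteins attack the vacuoles of intracellular pathogens and respond strongly to interferon gamma. Gbp2 was 9.24, 9.75 and 9.04 in muscle, but 7.61, 7.42 and 7.40 in Myogenin-Cre tumors, a log2 difference of -1.86 with no overlap. In aP2-Cre tumors it ran from 8.91 through a median of 9.33 to 11.29 in tumor 115, which overlapped muscle. Gbp3 followed Gbp2. It was 8.14, 8.63 and 7.80 in muscle, 6.52, 6.33 and 6.28 in Myogenin-Cre tumors and 8.15 to 9.75 (median 8.68) in aP2-Cre tumors. Its log2 difference between Myogenin-Cre tumors and muscle was -1.81. Igtp, an immunity-related GTPase, went the other way. It was 7.49, 8.09 and 7.30 in muscle, 8.18, 8.98 and 8.08 in Myogenin-Cre tumors and 8.35 to 10.63 (median 9.10) in aP2-Cre tumors, so that both tumor means lay above muscle. Irgm1, of the same family, differed from muscle by 0.19 in aP2-Cre and by -0.10 in Myogenin-Cre tumors, with overlap throughout. Mx2, a dynamin-like antiviral GTPase, was detected on 15 of 15 aP2-Cre arrays, at 5.67 to 7.19, on 2 of 3 Myogenin-Cre arrays and on 1 of 3 muscle arrays.

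Of the remaining effectors, Bst2 differed most. It encodes tetherin, which holds budding viruses at the cell surface. It was 6.22, 7.0 and 6.66 in muscle and 6.05 to 8.01 (median 6.91) in aP2-Cre tumors, which overlapped, and was undetected on all 3 Myogenin-Cre arrays. Its mean was at least 2.35-fold lower there than in muscle and at least 3.09-fold lower than in aP2-Cre tumors. Rsad2, which encodes the antiviral enzyme viperin, was 8.89, 8.54 and 8.49 in muscle, 8.52, 7.34 and 8.58 in Myogenin-Cre tumors and 7.79 to 9.84 (median 8.44) in aP2-Cre tumors, and every pair of groups overlapped. Cmpk2, a mitochondrial nucleotide kinase gene beside Rsad2 in the genome, was 6.96, 6.95 and 6.37 in muscle, 6.36, 6.02 and 6.38 in Myogenin-Cre tumors and 6.76 to 7.92 in aP2-Cre tumors. The tumor groups did not overlap for Cmpk2, and each overlapped muscle. Rtp4 was detected on 13 of 15 aP2-Cre arrays and on 1 of 3 arrays in each other group. Isg20, an RNA exonuclease, was detected on 6 of 15 aP2-Cre arrays, 1 of 3 Myogenin-Cre arrays and 0 of 3 muscle arrays. Its single detected Myogenin-Cre level was 6.42 in tumor 41.

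The set of arrays that holds both kinds of tumor allowed a comparison within a set. There 31 of 32 means were lower in Myogenin-Cre tumors than in aP2-Cre tumors 89, 90 and 95, with a median log2 difference of -0.99 against -0.02 over all genes. For 26 genes every Myogenin-Cre array lay below every aP2-Cre array (12.3% of all genes), and for 0 above (9.62% of all genes). The 26 include Irf7, Ddx58 and Oasl1, which passed the filter through aP2-Cre arrays alone, and Dhx58 and Rtp4, whose probes needed aP2-Cre arrays to pass. The largest differences were those of Gbp3 (-2.46), Usp18 (-2.36), Oasl2 (-2.33) and Oas1g (-2.25). For Gbp3 the aP2-Cre levels were 8.46, 9.46 and 8.61, and for Usp18 they were 8.58, 9.38 and 8.73. Genes with overlap in this set were Ifit2, Igtp, Irgm1, Isg20, Parp9 and Rsad2. Trim25, above muscle in both models, was also lower in Myogenin-Cre tumors here, with 9.89, 9.79 and 10.08 in the aP2-Cre tumors and a difference of -0.79.

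**Figure D3:**
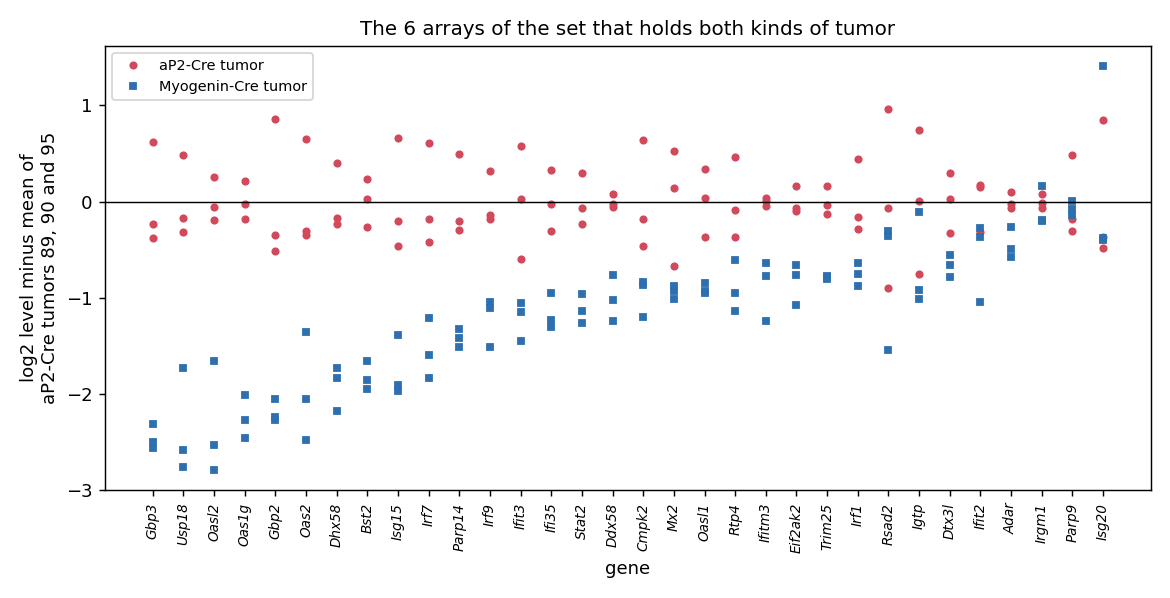
Level of each of the 32 genes on the 6 arrays of the set that holds both kinds of tumor, as the log2 difference from the mean of aP2-Cre tumors 89, 90 and 95 (circles); squares are Myogenin-Cre tumors 41, 42 and 43. The squares lie below all circles for 26 genes, furthest for Gbp3, and Isg20 at the right shows tumor 41 above the circles.

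Within the set of the muscle arrays, 27 of 32 means were higher in aP2-Cre tumors 128, 135 and 140, with a median log2 difference of 0.74 against 0.08. For 22 genes every tumor array lay above every muscle array (35.9% of all genes), and for 0 below (31.7% of all genes). The 22 include Irf7 and Oasl1, which passed the filter through aP2-Cre arrays alone, and Dhx58 and Isg20, whose probes needed aP2-Cre arrays to pass. Irf7 was at least 2.45-fold higher there, and Oasl2 had a log2 difference of 1.89, with tumor levels of 9.35, 9.56 and 9.60. The 5 genes with means below muscle in this set were Bst2 (-0.26), Rsad2 (-0.19), Gbp2 (-0.11), Ifi35 (-0.03) and Parp9 (-0.03), all with overlapping arrays. Bst2, Gbp2, Ifi35 and Parp9 had aP2-Cre means above muscle over all 15 tumors, so their sign differs between the set and the whole group. Myogenin-Cre tumors and muscle are linked only through the aP2-Cre tumors of their sets. With the set as a covariate the Myogenin-Cre differences from muscle were -1.0 for Isg15, -0.72 for Oas1g, -0.46 for Irf9 and -0.80 for Parp14. The Dhx58 difference was also below 0, but its size is uncertain, since the probe used was detected on 0 Myogenin-Cre arrays. For Gbp2 and Gbp3 the differences were -2.30 and -2.08. The sign turned for 6 of the 32 genes, upward for Ifit3 (from -0.17 to 0.51), Mx2, Irgm1 and the undetected Irf7, and downward for Stat2 and Parp9.

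Other genes of the interferon pathway, which were not among the 39, were tested with limma and Benjamini-Hochberg adjustment over all genes. They were listed with earlier results of these data known, so their counts are no independent test of the pattern. Of 104 named, 70 were measured. No interferon gene on that list passed the detection filter. Between the tumor models, 32 of the 70 were called higher in aP2-Cre tumors (8.08% of all genes) and 1 lower (7.68% of all genes), at an adjusted p under 0.05. Those called higher include Epsti1, Apol9a, Cxcl10 and Slfn2, which passed the filter through aP2-Cre arrays alone. They also include Ifi47, Nlrc5 and Ptpn2, detected on too few other arrays to pass without aP2-Cre tumors. The calls of these genes were thus partly set by the filter. The median log2 difference of the 70 was 0.58 against 0.01 over all genes. By role, 24 of 38 other interferon-induced effectors, 3 of 8 inhibitors, 2 of 9 sensors and adaptors, 2 of 7 signal transducers and regulatory factors, and 1 of 8 receptors and kinases rose. With the set of arrays as a covariate 13 of 70 were called higher, without Myogenin-Cre tumor 43 18, and in the authors' normalized values 9.

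Ifi27l2a, an interferon-induced membrane protein gene, differed most between the models. It was 8.71, 8.33 and 8.04 in Myogenin-Cre tumors and 10.07 to 12.05 (median 11.22) in aP2-Cre tumors, with 11.11, 11.08 and 10.22 in muscle. The Myogenin-Cre arrays lay below all others, and the aP2-Cre tumors overlapped muscle. The log2 difference between the tumors was 2.72 ± 0.32 SE (limma adjusted p = 1.48e-05). Samd9l, an antiviral and growth-restraining protein gene, was 1.27 higher (adjusted p = 3.11e-05), and Ifi27 0.64 higher (adjusted p = 5.92e-05). The single fall was that of Mavs, the mitochondrial adaptor of the RNA sensors, with -0.48 (adjusted p = 0.0312), a call lost under median centering, in the authors' values, with the set as a covariate and without Myogenin-Cre tumor 41 or 43 (adjusted p from 0.108 to 0.406).

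Within the shared set, 2 of the 70 fell in Myogenin-Cre tumors (0.299% of all genes) and 0 rose (0.109%). They were Ifi27l2a, with -2.42 (limma adjusted p = 0.0396), and Epsti1, undetected in Myogenin-Cre tumors and at least 1.19-fold lower (limma adjusted p = 0.0458). Epsti1 passed the filter through aP2-Cre arrays alone. Leaving out any array of the set except tumor 42 ended both calls.

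Against muscle, 41 of the 70 rose in aP2-Cre tumors (34.0% of all genes) and 8 fell (29.8%), with a median log2 difference of 0.52 against 0.09. The 41 include Apol9a, Cxcl10, Epsti1, Slfn2 and Tor3a, which passed the filter through aP2-Cre arrays alone. They also include Ptpn2 and Ifi47, detected on too few other arrays to pass without the aP2-Cre tumors. The filter thus partly set these calls. Irf3, the regulatory factor that first switches on interferon genes, was 10.01, 9.96 and 10.04 in muscle and 10.75 to 11.32 in aP2-Cre tumors, a rise of 0.98 (limma adjusted p = 7.53e-08). Its kinase gene Tbk1 rose by 0.94 (adjusted p = 8.07e-07) and Shisa5 by 1.19 (adjusted p = 7.26e-07). Among the falls, Mavs went from 9.84, 9.90 and 9.93 in muscle to 7.89 to 8.81, a difference of -1.58 (adjusted p = 8.9e-09). The kinase gene Jak2 had -0.87 (adjusted p = 1.05e-05) and Ifi27 -0.56 (adjusted p = 6.6e-06). Thus the upstream adaptor Mavs and kinase Jak2 fell in tumors in which Irf3 and Tbk1 rose.

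Within the set of the muscle arrays, 40 of the 70 rose in aP2-Cre tumors 128, 135 and 140 (31.1% of all genes) and 8 fell (28.2%). Those that rose include Apol9a, Cxcl10 and Epsti1, which passed the filter through aP2-Cre arrays alone, and Ifi47, which needed such arrays to pass.

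In Myogenin-Cre tumors 14 of the 70 rose against muscle (25.2% of all genes) and 10 fell (23.9%), both smaller shares than among all genes, with a median of -0.07 against 0.06. Without muscle sample 3 the 14 became 7, with the set as a covariate 8, and in the authors' normalized values 9. Irf3 rose here too, to 10.78, 11.04 and 10.77, by 0.86 (limma adjusted p = 3e-05). So did Ptpn11 (0.63, adjusted p = 2.29e-05) and Pias1 (0.63, adjusted p = 5.31e-05), which encode a phosphatase and a STAT inhibitor, and neither was called in the authors' normalized values. By size the largest fall was that of Ifi27l2a (-2.44, adjusted p = 5.74e-05), named here after its values were seen. Ordered by p, the first falls were those of Ifi27 (-1.20, adjusted p = 2.54e-08), Parp10 (-1.27, adjusted p = 7.32e-06, detected on 1 of 3 tumor arrays) and Jak2 (-1.11, adjusted p = 2.84e-05). The SD of Ifi27 was 0.18 in Myogenin-Cre tumors and 0.21 in muscle. It was 0.09 in the aP2-Cre tumors, which dominate the shared spread behind its p-value. Irf3 and Jak2 therefore moved in the same direction in both models against the shared muscle arrays.

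Variation among the 15 aP2-Cre tumors was not used to choose the genes. The SD of the 32 genes over these tumors had a median of 0.37, against 0.28 over all genes, and ran from 0.21 for Ifitm3 to 1.36 for Ifit3. Ifit3 was detected on 14 of the 15 arrays and was lowest, at 5.11, in tumor 104. Tumor 165 had the highest level of 14 of the 32 genes, while 4.59% of all genes were highest there. The 14 were Isg15, Usp18, Oas1g, Dhx58, Irf7, Ifit2, Ifit3, Mx2, Oas2, Oasl1, Oasl2, Bst2, Eif2ak2 and Cmpk2. Tumor 115 was highest for 6 other genes, Parp14, Irf1, Parp9, Dtx3l, Gbp2 and Gbp3 (8.23% of all genes), and tumor 90 for 4 (7.35%). Lowest levels fell to tumor 68 for 9 genes (7.10% of all genes), tumor 104 for 8 (12.1%) and tumor 89 for 7 (4.53%). Gbp2 and Gbp3 thus peaked in another tumor than the 4 OAS genes, while Rsad2 peaked in tumor 90 and Isg20 in tumor 104.

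**Figure D4:**
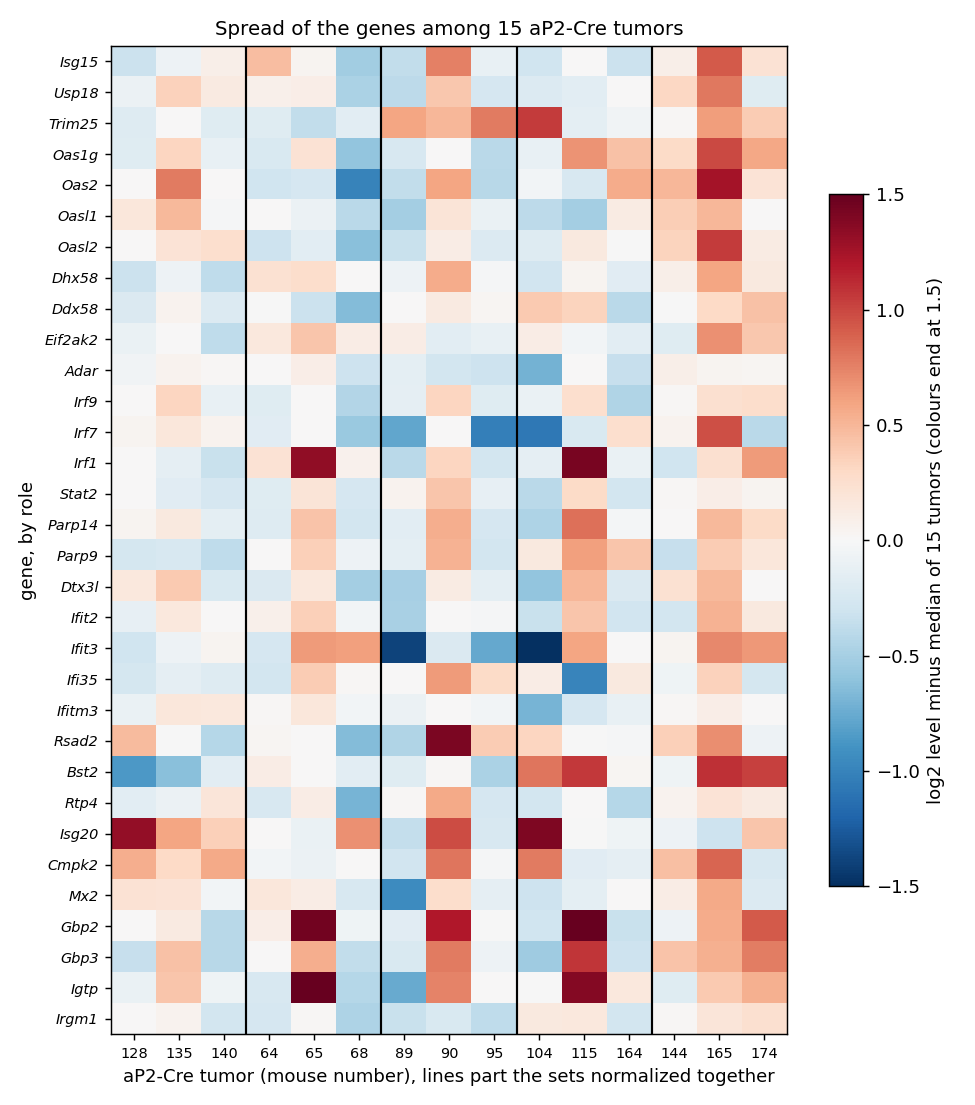
Log2 level of the 32 genes in each aP2-Cre tumor minus the gene's median over the 15 tumors, with red above and blue below the median. Lines part the inferred sets of arrays, and colours end at 1.5. Tumor 165 is red across most of the ISG15 and OAS rows, whereas tumors 65 and 115 are darkest in Irf1, Gbp2 and Igtp.

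The slope of each gene on the level of a transcription factor was fitted among the 15 aP2-Cre tumors with limma, with the set of arrays as a block. These fits were added after the data had been seen. A slope is a description of levels read from the same arrays. On Irf1, 61 of 11033 genes rose (0.553%) and 3 fell (0.0272%), and 4 of the other 31 interferon-stimulated genes rose. They were Gbp2 with a slope of 1.38 ± 0.09 SE (adjusted p = 5.22e-05), Igtp with 1.12 ± 0.16 SE (adjusted p = 0.0127), Parp14 with 0.65 ± 0.10 SE (adjusted p = 0.0186) and Gbp3 with 0.82 ± 0.15 SE (adjusted p = 0.0351). Slopes below 0 were those of Trim25 (-0.21 ± 0.17 SE), Ifi35 (-0.19 ± 0.19), Cmpk2 (-0.13 ± 0.22), Isg20 (-0.06 ± 0.31) and Oasl1 (-0.04 ± 0.16), none of them called. Next in order of p after the 4 were Stat2, Irf9, Ifit2 and Dtx3l, with slopes of 0.36, 0.35, 0.41 and 0.47, which were not called.

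The Irf1 calls rest on 2 tumors. Without tumors 115 and 65, the farthest from the median Irf1 level, 0 genes were called, while 5 of 31 had an unadjusted p under 0.05. The slopes themselves were then 1.40 for Gbp2, 1.12 for Igtp, 0.64 for Parp14 and 0.77 for Gbp3. On Stat2, 3 of 11033 genes rose (0.0272%), among them Parp14 (1.63 ± 0.20 SE, limma adjusted p = 0.0237) and Gbp2 (3.11 ± 0.42 SE, limma adjusted p = 0.0349), and neither was called without tumors 90 and 104 or without the block. On Irf9 and on Irf7, limma called 0 genes. At an unadjusted p under 0.05, 16 of 31 interferon-stimulated genes (51.6%) and 5.87% of all genes had a slope on Irf9, and 13 of 31 (41.9%) and 11.8% on Irf7. The median slope of the 31 was 0.70 on Irf9 and 0.35 on Irf7, against -0.02 and 0 over all genes.

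**Figure D5:**
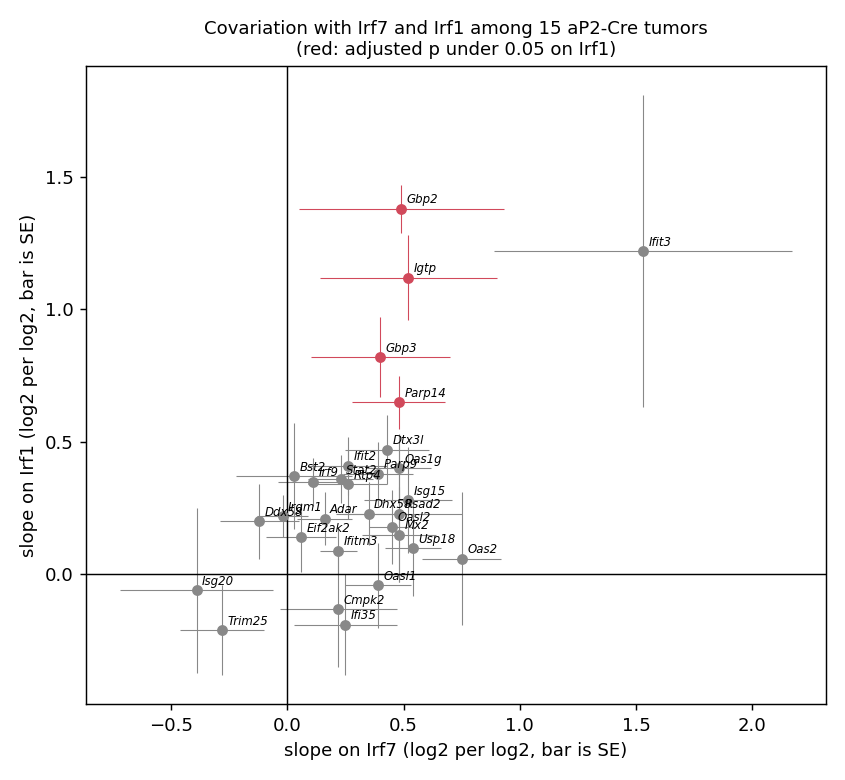
Slope of each interferon-stimulated gene on the Irf7 level (horizontal axis) and on the Irf1 level (vertical axis) among 15 aP2-Cre tumors, in log2 per log2, with bars of 1 SE; red marks an adjusted p under 0.05 on Irf1. Gbp2, Igtp, Gbp3 and Parp14 lie highest among the red points, and Ifit3 stands apart with the widest bars.

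Macrophages are among the cells that respond to interferon, and their part in the differences between groups was not tested. The summed level of their markers was higher in aP2-Cre tumors than in both other groups. Of 15 macrophage markers 13 were measured, and Cd68 and Itgam were not. Their summed log2 level was 12.82 to 14.55 in aP2-Cre tumors, 11.89 to 12.40 in Myogenin-Cre tumors and 10.95 to 11.85 in muscle, and 12.85 to 13.34 in aP2-Cre tumors 89, 90 and 95. Of the 13, 12 rose in aP2-Cre tumors against muscle (34.0% of all genes). Against Myogenin-Cre tumors 8 rose (8.08% of all genes) and 1 fell (7.68%). In Myogenin-Cre tumors 2 rose against muscle (25.2% of all genes) and 0 fell (23.9%), both smaller shares than among all genes. Among aP2-Cre tumors 663 of 11021 genes rose with the mean macrophage marker level (6.02%) and 572 fell (5.19%). Of the 32 interferon-stimulated genes 0 were called in that limma fit and 6 (18.8%) had an unadjusted p under 0.05, against 25.5% of all genes, while 17 of the 70 other pathway genes rose.

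Markers of other cells were measured in the same way. Of 15 lymphocyte markers 7 were measured, with summed levels of 11.16 to 12.08, 10.87 to 11.66 and 10.86 to 11.01 in aP2-Cre tumors, in Myogenin-Cre tumors and in muscle, and the defining markers Cd4, Cd8a and Ms4a1 were not measured. Of 8 markers listed for plasmacytoid dendritic cells, a main source of type I interferon, 7 were measured, at 13.69 to 15.23, 14.69 to 15.17 and 14.81 to 14.93, and of these Cox6a2 is also a gene of muscle. Of 10 neutrophil markers 7 were measured, at 8.0 to 14.78, 10.52 to 14.03 and 7.82 to 8.44. In Myogenin-Cre tumors 6 of them rose against muscle (25.2% of all genes). Of 10 endothelial markers 9 were measured, at 12.55 to 13.07, 12.68 to 12.92 and 12.38 to 12.57. The part of any of these cells in the differences between groups was not tested.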

How the data were processed

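Tumor RNA (15 aP2-Cre and 3 Myogenin-Cre tumors) and muscle RNA (3 samples) was extracted with Trizol and RNeasy columns, treated with DNase I and labelled with biotin for Illumina arrays, per the labels' protocols. The authors deposited 1 linear intensity per probe and array without normalization, and a detection p-value beside it that moves in steps of 1 in 936. A second deposited table holds the authors' normalized intensity values, from whose shared maxima 5 sets of arrays were inferred. The submitters' processing notes name BeadStudio. No further step is stated in the sources used here. Columns were matched by label, 1 of them by its tumor number as its letters are transposed, and 0 columns of sample values were left unmapped.

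The neqc function of limma 3.58.1 (R 4.3.3) subtracted background by normexp, inferring the negative controls from detection p, added an offset of 16 and applied quantile normalization. The filter kept 19655 of 45281 probes. Of all probes 34885 have 1 gene symbol in the platform table, 18 several and 10378 none, and the brightest probe stood for a gene. Of 14 interferon-stimulated genes with several probes past the filter, the probes disagreed in sign between aP2-Cre tumors and muscle for 1 (Dtx3l) and between Myogenin-Cre tumors and muscle for 4 (Adar, Ifit2, Irf1 and Oasl2).

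Groups were compared in 1 limma model over 21 arrays (two-sided, moderated with a mean-variance trend), and the sets of 6 arrays in models of their own, with Benjamini-Hochberg adjustment over 11034 genes and a threshold of 0.05. The fit was tested on simulated data. Summed marker levels are the log2 of summed linear levels. The members and lists were chosen with earlier results of these data known, the plasmacytoid dendritic cell list included. All members were named, and of other pathway genes up to 3 in each direction per comparison with the smallest adjusted p, except within the set of the muscle arrays. A slope on the level of another gene had been planned and is not reported here. Slopes on the 4 transcription factors and on the mean macrophage marker level were added after the data had been seen, 5 fits in all, tried first with Stat2 and the macrophage markers. For the slope on Irf1 the 8 genes with the smallest p and those with slopes below 0 were named. Motifs were searched in the RefSeq promoter table of GRCm38.p6. The number of arrays limits the precision of all values.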

Additional observations from a re-analysis of the deposited data

Results flagged for a closer look

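For 5 genes every aP2-Cre tumor lay above every muscle array and every Myogenin-Cre tumor lay below every muscle array. This was so for 0.0997% of all genes, and the choice of genes helped to set the count. The log2 differences of aP2-Cre tumors from muscle were 0.89 for Isg15, 1.63 for Oas1g, 0.87 for Dhx58, 0.67 for Irf9 and 0.70 for Parp14. Those of Myogenin-Cre tumors from the same muscle arrays were -0.81 for Isg15, -0.95 for Oas1g, -0.93 for Dhx58, -0.54 for Irf9 and -0.76 for Parp14. The Dhx58 probe used was detected on 0 of 3 Myogenin-Cre arrays, so the size of its difference there is uncertain. It was detected on 2 of 3 muscle arrays and passed the filter only with aP2-Cre arrays. The filter thus partly set the place of Dhx58 above the other groups. On other probes the Myogenin-Cre differences were smaller, -0.40 for Oas1g, -0.43 and -0.07 for Dhx58 and -0.11 for Parp14. For Irf9 the other probe gave 0.26 in aP2-Cre and -0.64 in Myogenin-Cre tumors. The difference between the models was not tested for these genes, since it is what they were chosen by. Without overlap in either comparison, Oas1g and Dhx58 kept this pattern under median centering, without background correction, in the authors' normalized values, without the detection filter and with the mean over probes. Isg15 kept it in all of these except median centering, and Irf9 and Parp14 only without background correction or without the filter.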

How the results depend on the processing

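No paired analysis was possible because the groups share no replicate numbers. 1 planned slope and its alternatives were not run. Median centering moved the median of all genes from 0.09 to 0.44 (log2) for aP2-Cre tumors against muscle, from 0.06 to 0.25 for Myogenin-Cre tumors against muscle and from 0.01 to 0.17 between the tumors, and the medians of the 32 genes to 1.24, -0.18 and 1.19. The share of higher among called genes moved from 53.4% to 74.6%, from 51.3% to 67.8% and from 51.3% to 82.1%. The causes of the changes below were not tested.

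Under median centering, all genes called lower went from 3285 to 1722 for aP2-Cre tumors against muscle, from 2635 to 1398 for Myogenin-Cre tumors against muscle, from 847 to 226 between the tumors and from 33 to 66 within the shared set. Other pathway genes called lower went from 8 to 4, from 10 to 6, from 1 to 0 and from 2 to 4 in the same order. Interferon-stimulated genes without overlap against muscle in Myogenin-Cre tumors went from 1 to 5 higher and from 13 to 6 lower.

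In the authors' normalized values, Myogenin-Cre tumors against muscle had 2 interferon-stimulated genes higher without overlap and 9 in place of 14 other pathway genes called higher, and Oasl1, undetected in both groups, turned from -0.70 to 0.10. Between the tumors 207 genes were called higher and 322 lower, and 9 and 0 other pathway genes. Within the shared set 5 in place of 12 genes were called higher, and 1 other pathway gene lower. With the set as a covariate, 8 other pathway genes were called higher in Myogenin-Cre tumors against muscle. Between the tumors that fit called 201 genes higher and 208 lower, and 13 and 0 other pathway genes.

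Leaving out 1 array at a time gave, for Myogenin-Cre tumors against muscle, 1 to 3 interferon-stimulated genes higher without overlap and 7 to 12 other pathway genes called higher. Between the tumors it gave 196 to 1188 genes called higher and 170 to 1005 lower, the lowest without tumor 43, and 18 to 32 other pathway genes higher and 0 to 2 lower. Within the shared set it gave 0 to 237 genes called higher and 0 to 418 lower, both highest without tumor 42, with 0 to 9 other pathway genes lower and 0 to 1 interferon-stimulated genes higher without overlap.

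Of the slopes, the 4 calls on Irf1 and the 2 on Stat2 became 0 without the 2 tumors farthest from the median, and those on Stat2 also became 0 without the block. On macrophage markers the 0 calls became 3 without the block and 1 under median centering.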
